A study of Mus musculus with 3 samples.

Results

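The cells described here are 64 germ cells from 1 library of wild-type neonatal mouse testis, labelled Cdk2-WT. They were taken by the library suffix of the cell barcode and by the cluster that the authors assigned, which was cluster A for 36 cells and cluster B for 28. They make up 64 of the 69 Cdk2-WT cells in the authors' table of germ cells. The Cdk2-WT library held 5061 cells and the series 14422. The 5 Cdk2-WT cells of cluster C and the 6 Cdk2-Y15S cells of cluster B were not used.

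The series holds 3 libraries of testis, 1 per genotype: Cdk2-WT (Cdk2+/+), the heterozygote Cdk2-HET (Cdk2+/YS) and the homozygote Cdk2-Y15S (Cdk2YS/YS). Untreated males of all 3 genotypes came from breeding Cdk2+/YS mice on a mixed background of B6(Cg)-Tyrc-2J/J with FVB/NJ, so a wild-type male had heterozygous parents. The labels give the age as post-natal day 3 and the dissection protocol gives 3.5 days post partum. Whole testes were dissociated with trypsin, EDTA and DNase I and read with 10x Genomics 3′ version 2 chemistry, which counts each captured polyadenylated molecule once by its unique molecular identifier (UMI). The labels do not give the number of animals per library.

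Around birth, male germ cells of the mouse are prospermatogonia that have paused in the cell cycle. During this pause they lay down new DNA methylation on retrotransposons and imprinted loci. DNMT3A is among the enzymes, DNMT3L is a cofactor, and small piwi-bound RNAs (piRNAs) guide part of this methylation. In the first days after birth the cells start to divide again and give rise to spermatogonia, some of which form the stem cell pool. Maintenance methylation by DNMT1 and its partner UHRF1 works on newly copied DNA and so belongs to dividing cells.

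Every value below describes 1 library. The cells of a cluster are not replicates, and the clusters come from the expression of these same cells, so no test was made and no p-value is given. UMIs were summed over the cells of each cluster. Levels are in CPM, which are UMIs of the gene per 1000000 UMIs of the cluster, or of the single cell where a level per cell is given. Ratios are on the log2 scale, cluster A over cluster B, with 0.5 UMI added to each sum. The 95% intervals cover counting error only, and not differences between animals or libraries.

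Both clusters carried the markers of germ cells. Ddx4, which encodes a germ cell RNA helicase (ENSMUSG00000021758, chromosome 13, 112598333 to 112652475, minus strand, GRCm38), was found in 36 of 36 cells of A and 28 of 28 cells of B. Its level per cell ran from 64.3 over a median of 223 to 516 CPM in A and from 50.1 over 213 to 451 in B. The ranges overlapped almost fully and the log2 ratio was 0.11 (-0.26 to 0.48). Dazl and Mael were likewise found in every cell of both clusters. In a class of 2566 Sertoli-like cells of the same library (at least 5 of 10 Sertoli markers, none of the 3 germ markers), 0 cells held a UMI of Ddx4, which is also a condition of that class.

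Markers of somatic cells were present at low levels. The 10 Sertoli markers summed to 412 CPM in A and 378 in B, led by Aard, Inha and Clu, and per cell they ran from 0 to 24.3 UMIs per 10000 in A and from 0.749 to 10.0 in B, with medians of 2.77 and 3.29. Without the 2 highest cells (24.3 and 16.5), left out after their values were seen, the sum in A was 289 CPM, below B. Stromal markers summed to 115 and 122 CPM, endothelial markers to 37.7 and 25.8, and macrophage markers to 13.7 and 9.22. Among the stromal markers, Dcn stood apart with 7 UMIs in A and 20 in B. The part of somatic RNA in the ratios below was not tested.

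The clusters differed slightly in depth. Cells of A held 11020 to 31648 UMIs (median 15670) and cells of B 13353 to 31107 (median 18398). With every cell thinned to 10000 UMIs, which kept all 64 cells, the median number of genes was 3610.5 in A and 3461 in B. Mitochondrially encoded genes took a median of 10.8% of a cell's UMIs in A and 12.1% in B. Cluster A also held 3 cells under 1% (0.0744%, 0.585% and 0.858%) and B held 0 cells under 3%. None of the 64 barcodes occurred in another library, while 87 barcode sequences of the series did.

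Of 10451 genes in the germ cell table, 7249 had at least 20 UMIs over both clusters, and their median log2 ratio was 0.06. At least 2-fold higher levels in A were found for 551 of these genes (7.60%) and at least 2-fold lower levels for 270 (3.72%). A ratio above 0 was found for 54.6% and below 0 for 45.4%. Counts of list members below are read beside these shares.

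Genes of G2 and M phase set the clusters apart most. All 32 genes of this list had at least 20 UMIs, 27 were at least 2-fold lower in A and 29 had a ratio below 0. Their summed level was 1549 CPM in A and 4945 in B (log2 -1.67, -1.79 to -1.57), with a median over the members of -1.82.

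Mki67 encodes the proliferation antigen that coats mitotic chromosomes (ENSMUSG00000031004, chromosome 7, 135689784 to 135716361, minus strand). It was found in 8 of 36 cells of A and 27 of 28 cells of B, with 12 and 99 UMIs. The per-cell level ran from 0 over a median of 0 to 182 CPM in A and from 0 over 175 to 448 in B. Its log2 ratio was -3.10 (-4.15 to -2.28), the lowest of the list. The Sertoli-like class, whose cells also divide at this age, held an Mki67 UMI in 21.9% of cells at a median depth of 6140 UMIs. It is therefore no measure of free RNA for this gene.

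Top2a, the topoisomerase that disentangles chromosomes before they part, held 32 UMIs in A and 191 in B (log2 -2.66). It was found in every cell of B (85.9 to 862 CPM, median 356) and in 15 of 36 cells of A (0 to 301, median 0). Cyclins followed the same direction. Ccna2 held 35 and 178 UMIs (log2 -2.43) and Ccnb1, the mitotic cyclin that activates CDK1, 15 and 78 (log2 -2.44), of which 19 came from 1 cell of B. Aurkb and Hmmr, an Aurora kinase and a spindle protein, each had 3 UMIs in A against 24 and 22 in B (log2 -2.91, -5.48 to -1.38, and -2.79, -5.36 to -1.24).

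Not every gene of the list differed. Pttg1 (securin) and the spindle genes Tacc3 and Knstrn had log2 ratios of 0.06, 0.02 and 0.08. Their intervals spanned about 1 log2 unit on either side (Pttg1 -0.78 to 0.92), so a difference below about 2-fold was not detectable at this depth. Ncapd2, a condensin subunit gene, had a ratio of -0.74 (-1.57 to 0.04).

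The bases before the transcription start of these genes were read because G2 and M phase promoters are known for 2 short motifs. One is TTTGAA, the core of the cell cycle genes homology region that DREAM and related MuvB complexes contact, and the other is CCAAT, the NF-Y site. The third motif searched, GCGGGAA, is of the E2F type known from S phase genes. The 250 bases before the start from RefSeq (GRCm38.p6) were searched on both strands, and a match is a run of letters and not a shown binding site. Below are 5 promoters of the G2 and M phase list, 3 with TTTGAA and 2 without, and 1 of the S phase list, each lying outside its own gene's GENCODE model. They are printed 5′ to 3′ on the strand of the gene, with matches on either strand in capitals.
Top2a, chr11:99024190-99024439, minus strand: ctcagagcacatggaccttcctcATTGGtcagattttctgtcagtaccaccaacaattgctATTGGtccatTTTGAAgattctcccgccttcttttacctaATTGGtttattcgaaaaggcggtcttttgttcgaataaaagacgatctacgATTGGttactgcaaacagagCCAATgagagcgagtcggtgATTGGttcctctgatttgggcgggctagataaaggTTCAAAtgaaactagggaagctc
Mki67, chr7:135716380-135716629, minus strand: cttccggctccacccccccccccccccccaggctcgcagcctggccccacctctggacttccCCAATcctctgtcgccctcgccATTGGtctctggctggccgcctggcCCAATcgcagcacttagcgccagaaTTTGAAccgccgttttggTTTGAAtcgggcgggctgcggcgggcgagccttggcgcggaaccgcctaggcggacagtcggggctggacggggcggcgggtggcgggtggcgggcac
Kif11, chr19:37376132-37376381, plus strand: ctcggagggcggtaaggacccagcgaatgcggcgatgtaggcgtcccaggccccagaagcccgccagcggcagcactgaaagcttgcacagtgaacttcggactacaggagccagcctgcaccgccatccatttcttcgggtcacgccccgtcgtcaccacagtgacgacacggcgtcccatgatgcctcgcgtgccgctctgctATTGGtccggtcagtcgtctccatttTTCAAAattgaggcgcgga
Cenpf, chr1:189688087-189688336, minus strand: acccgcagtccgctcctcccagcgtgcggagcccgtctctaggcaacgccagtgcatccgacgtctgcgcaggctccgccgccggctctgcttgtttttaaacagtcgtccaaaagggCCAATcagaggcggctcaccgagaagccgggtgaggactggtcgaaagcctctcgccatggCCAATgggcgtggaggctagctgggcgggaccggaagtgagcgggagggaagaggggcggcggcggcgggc
Hmmr, chr11:40733438-40733687, minus strand: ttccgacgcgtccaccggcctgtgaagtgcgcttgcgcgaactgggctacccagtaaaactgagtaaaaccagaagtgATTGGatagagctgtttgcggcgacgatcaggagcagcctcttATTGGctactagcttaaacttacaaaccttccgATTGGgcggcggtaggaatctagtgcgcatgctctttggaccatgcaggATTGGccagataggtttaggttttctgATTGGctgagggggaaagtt
Pola1, chrX:93632156-93632405, minus strand: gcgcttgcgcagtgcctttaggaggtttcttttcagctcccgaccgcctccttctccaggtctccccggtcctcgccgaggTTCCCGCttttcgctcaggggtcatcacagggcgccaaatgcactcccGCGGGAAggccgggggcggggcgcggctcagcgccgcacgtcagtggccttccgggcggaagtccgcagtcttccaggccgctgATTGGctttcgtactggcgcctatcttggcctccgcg

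Top2a held 2 matches of TTTGAA and 6 of CCAAT, the nearest TTTGAA beginning 23 bases before the start. Mki67 held 2 and 3, and Kif11, a spindle motor with a log2 ratio of -2.09, held 1 of each. Cenpf, a kinetochore protein gene (log2 -2.30), and Hmmr held none of TTTGAA and 2 and 5 of CCAAT. Pola1, the catalytic subunit of the primase-polymerase complex, held 2 matches of GCGGGAA, 1 of CCAAT and none of TTTGAA. Among the G2 and M phase genes at least 2-fold lower in A, 23 of 27 had a RefSeq promoter in the table, and CCAAT was found in 19 (82.6%), TTTGAA in 8 (34.8%) and GCGGGAA in 0. In the 5 promoters of the list's genes under 2-fold they were found in 2, 1 and 0. These are too few to tie the motifs to the ratio between clusters rather than to the list. Over all 27025 promoters the shares were 34.5%, 16.3% and 3.84%, and over the 5661 promoters of genes with at least 20 UMIs they were 36.5%, 9.42% and 8.44%. In the S phase list, GCGGGAA was found in 9 of 23 promoters (39.1%), CCAAT in 15 (65.2%) and TTTGAA in 3 (13.0%). The promoters of Ccna2 and Spocd1 were not among those read.

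Genes of DNA replication were also lower in A, but by less. Of 27 S phase genes with at least 20 UMIs, 26 had a ratio below 0 and 5 were at least 2-fold lower. The list summed to 2115 CPM in A and 3624 in B (log2 -0.78, -0.88 to -0.67). Pcna, the sliding clamp of the replication fork, held 14 UMIs in A and 37 in B (log2 -1.47). The next lowest were Rrm2, a subunit of ribonucleotide reductase (19 and 44 UMIs, -1.29), the single-strand binding subunit Rpa2 (-1.18) and Pola1 (-1.07). The replication origin factors Cdc45 (0.08), Cdc6 (-0.10) and Gins2 (-0.37) and the helicase subunit Mcm4 (-0.30) had the highest ratios.

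The 2 cell cycle lists behaved differently from cell to cell. G2 and M phase UMIs ran from 6.69 over a median of 13.0 to 36.9 per 10000 UMIs in A and from 29.5 over 43.0 to 86.8 in B. The ranges overlapped in part. 2 cells of A reached the lowest cell of B, 8 of 28 cells of B lay at or under the highest cell of A, and no cell of A reached the median of B. S phase UMIs ran from 6.81 over 17.5 to 59.3 in A and from 19.6 over 34.2 to 65.9 in B. Here the ranges overlapped widely, and 15 cells of A reached the lowest cell of B.

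**Figure D1:**
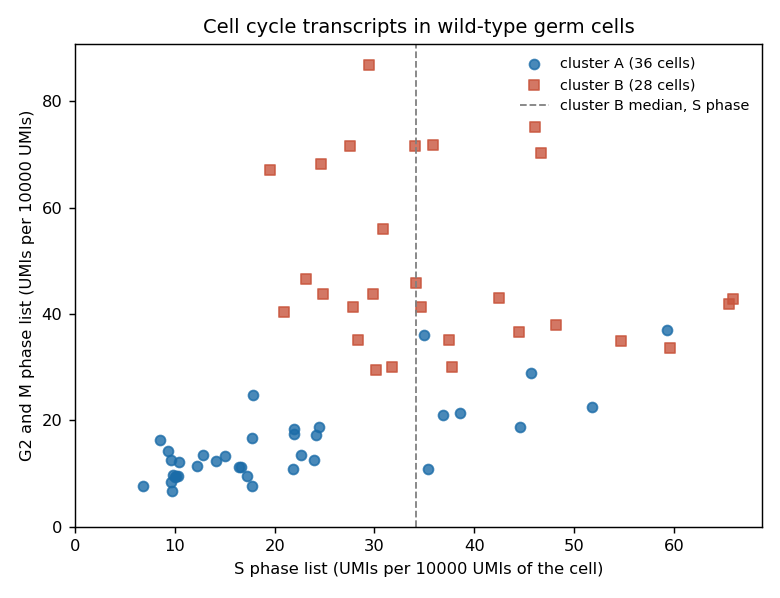
Each point is 1 of the 64 wild-type germ cells, with UMIs of the S phase list (horizontal) and of the G2 and M phase list (vertical) per 10000 UMIs of the cell. Blue circles are the 36 cells of A, red squares the 28 cells of B, and the dashed line is the B median for S phase. The 8 cells of A to the right of the line stand apart from the other 28 along the horizontal axis.

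Cluster A was therefore not uniformly low in transcripts of replication genes. Whether its cells were cycling was not measured apart from these transcripts. In 8 of its 36 cells the S phase UMIs reached the median of B, at 34.9 to 59.3 per 10000 (median 41.6). The other 28 cells lay between 6.81 and 24.4 (median 14.6), and no cell of A lay between these ranges. The 8 cells were chosen by this level, so their S phase genes are given as a description. In the same 8 cells G2 and M phase UMIs had a median of 22 per 10000 (10.9 to 36.9), against 12.2 (6.69 to 24.8) in the other 28 and 43.0 in B. Across the 36 cells of A, which share a library and whose 2 levels share the cell's total as denominator, Pearson's r between the lists was 0.76. Across the cells of B it was -0.22, so the 2 lists rose together only in A.

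Values of single genes in the 8 cells, the other 28 and B follow. Top2a stood at 156 CPM in the 8 cells, 28.2 in the other 28 and 352 in B. Mki67 stood at 65.9, 8.67 and 182 CPM, and Mcm2, a subunit of the replicative helicase named here after its values were seen, at 198, 65.0 and 171. The histone cluster genes, of which only 4 of 12 had at least 20 UMIs over both clusters, summed to 239, 86.7 and 242 CPM. In Top2a and Mki67, which the choice of the 8 cells did not use, they lay between the rest of A and B. In Mcm2, a member of the list that chose them, they lay above B. Their depth was like that of the other cells of A (medians of 15798 and 15670 UMIs). Their mitochondrial share was higher (median 12.7%, 10.3 to 16.5, against 9.79%, 0.0744 to 16.1) and their cytosolic ribosomal protein genes were lower (log2 -0.49, -0.51 to -0.47). The part of these values in the split was not tested.

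Among inhibitors of the cell cycle and genes of quiescence, 9 of 15 members with at least 20 UMIs were above 0, 3 at least 2-fold, and 0 at least 2-fold lower (list of 24, summed log2 0.35, 0.20 to 0.51). Cdkn1c, which encodes the CDK inhibitor p57, held 68 UMIs in A and 17 in B. It was found in 28 of 36 cells of A (median 88.4 CPM, highest 554) and in 11 of 28 cells of B (median 0, highest 183), with a log2 ratio of 1.87 (1.11 to 2.76). Cells of the library outside the germ cell table held it at 128 CPM, above both clusters. Ccng1, a cyclin G gene induced by p53, held 83 and 27 UMIs (log2 1.5, 0.87 to 2.20), 17 of the 83 in 1 cell. Foxo3, a transcription factor of stem cell quiescence, held 89 and 37 (log2 1.15, 0.59 to 1.76). Foxo1 of the same list lay on the other side of 0, with 79 and 96 UMIs (log2 -0.38, -0.83 to 0.06). Lin9 (-0.44, -1.73 to 0.79) and Tob1 (-0.33, -1.36 to 0.67) were also below 0, with intervals that include no difference. The p21 gene Cdkn1a, also named after its values were seen, had a log2 ratio of 0.36 and that of E2f4 was -0.79 (-1.80 to 0.15), both under 2-fold.

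Of 16 regulators of CDK2 and G1 with at least 20 UMIs, 12 were below 0 and 3 at least 2-fold lower in A. These were Wee1, the kinase that places the inhibitory phosphate on CDKs (6 and 20 UMIs, log2 -1.76), Cdk7, the CDK-activating kinase (12 and 30, -1.39), and Cdk6 (7 and 15, -1.15, -2.74 to 0.18). The gene altered in the other libraries, Cdk2 (ENSMUSG00000025358, chromosome 10, 128697939 to 128705031, minus strand), was present in both clusters of the wild type. It held 48 UMIs in 23 of 36 cells of A and 35 UMIs in 17 of 28 cells of B, with a log2 ratio of 0.35 (-0.31 to 1.02) that includes no difference. The G1 cyclin gene Ccnd2 held 423 and 388 UMIs, a log2 ratio of 0.02 (-0.18 to 0.22).

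The summed levels of the DNA methylation lists differed in direction, while members of both lists lay on either side of 0. Of 9 genes for new methylation with at least 20 UMIs, 7 were above 0, 3 were at least 2-fold higher in A and 0 were at least 2-fold lower (list of 12, 1072 against 695 CPM, log2 0.62, 0.44 to 0.81). Of 6 genes for upkeep and removal, 3 were above 0, 0 were at least 2-fold higher and 2 at least 2-fold lower (list of 10, 417 against 656 CPM, log2 -0.65, -0.90 to -0.42), and 255 of its 356 UMIs in B came from Dnmt1 and Uhrf1. In single cells the new methylation genes ran from 5.24 over 10.4 to 20.8 UMIs per 10000 in A and from 1.95 over 7.37 to 10.6 in B. The ranges overlapped, with 27 of 36 cells of A at or above the median of B and 2 of 28 cells of B at or above the median of A.

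Dnmt3a, a de novo methyltransferase gene (chromosome 12, 3806007 to 3914443), was found in 35 of 36 cells of A and 19 of 28 of B. It ran from 0 over 163 to 446 CPM in A and from 0 over 55.5 to 401 in B, with 101 and 39 UMIs in sum and a log2 ratio of 1.26 (0.72 to 1.84). Dnmt3b, its paralog, did not share this ratio, with 27 and 25 UMIs (log2 0.01, -0.83 to 0.85).

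Dnmt3l, the inactive cofactor that stimulates DNMT3A (ENSMUSG00000000730, chromosome 10, 78041947 to 78063622, plus strand), was scarcer. It held 20 UMIs in 13 of 36 cells of A, at most 4 in a cell, and 2 UMIs in 2 of 28 cells of B, or 34.3 and 3.69 CPM (log2 2.93, 1.18 to 6.36). Spocd1, which links the nuclear piRNA machinery to de novo methylation (ENSMUSG00000028784, chromosome 4, 129929249 to 129957115, plus strand), held 19 UMIs in 13 of 36 cells of A, at most 3 in a cell. It held 0 UMIs in B, which allows up to 5.53 CPM and, for cells with a UMI, a share of up to 10.7%. Its level in A was 32.6 CPM, and the exact interval of the log2 ratio began at 2.12. Each of the 2 genes was found in 1 of 2566 Sertoli-like cells (0.039%), at a median depth of 6140 UMIs. That class was chosen to hold no UMI of Ddx4, Dazl or Mael, so it cannot measure free RNA of germ cells. The part of free RNA in these shares was not tested. Spocd1 falls just under the limit of 20 UMIs and is not among the genes counted above.

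The UMIs of these 2 genes did not mark the same cells throughout. Both were found in 7 cells of A, exactly 1 of them in 12, and neither in 17. With cells thinned to 10000 UMIs, Dnmt3l was found in 11 cells of A and 0 of B and Spocd1 in 10 and 0. At 1 to 4 UMIs per cell, a cell without a UMI cannot be told apart from a cell that missed capture.

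The other genes of new methylation lay on both sides of 0. Morc1, a silencer of retrotransposons in male germ cells, held 56 UMIs in A and 19 in B (log2 1.43, 0.68 to 2.29), 12 of the 56 in 1 cell. The corepressor gene Trim28 held 107 and 55 (0.85, 0.37 to 1.35) and the histone demethylase gene Kdm1a had a ratio of 0.40. Setdb1 (-0.10) and the histone methyltransferase gene Nsd1 (-0.57) had the lowest ratios of the list. Ehmt2, the G9a methyltransferase of the chromatin list, held 111 and 53 UMIs (log2 0.96, 0.48 to 1.46).

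In upkeep, Dnmt1 (chromosome 9, 20907209 to 20959888) held 42 UMIs in A and 91 in B (log2 -1.21, -1.78 to -0.68). Its per-cell level ran from 0 over 57.7 to 305 CPM in A and from 0 over 172 to 373 in B. Uhrf1, which brings DNMT1 to newly copied DNA, held 95 and 164 UMIs (log2 -0.89, -1.27 to -0.52) and was found in 27 of 36 and 28 of 28 cells. Tdg, a glycosylase of active demethylation, was lower in A (7 and 21 UMIs, -1.62). The dioxygenase gene Tet3 (0.78) and Gadd45a (0.43) were above 0, and Usp7 stood at 0.04.

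**Figure D2:**
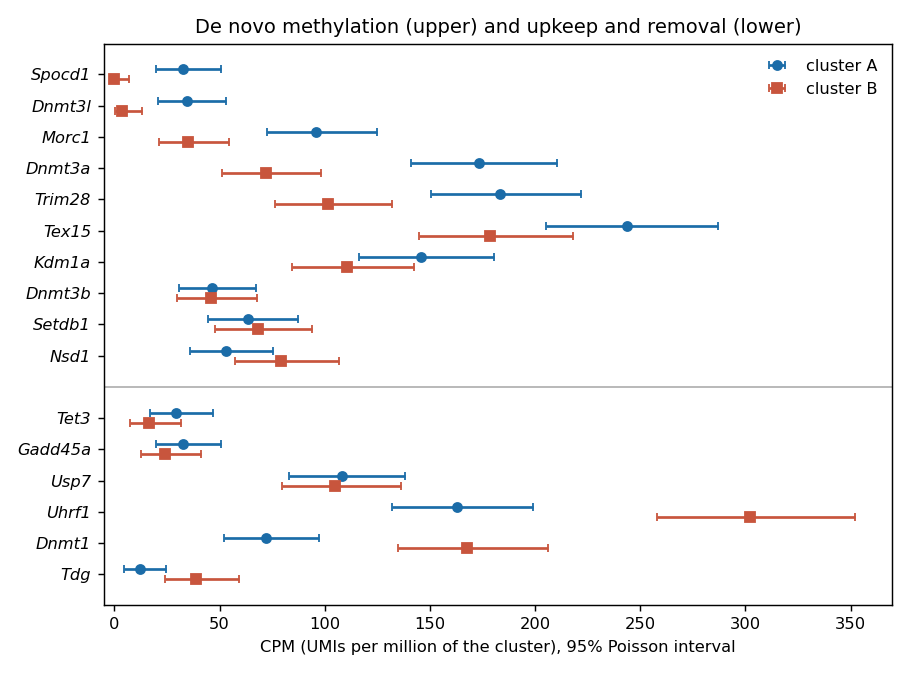
Points are CPM in cluster A (blue circles) and cluster B (red squares) with 95% Poisson intervals, for genes of new methylation (upper block) and of upkeep and removal (lower block) with at least 20 UMIs, and Spocd1. Dnmt3l, Spocd1, Morc1 and Dnmt3a lie to the right in A, and Dnmt1, Uhrf1 and Tdg in B.

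The same lists were read in the 8 cells of A with high S phase UMIs. Upkeep and removal genes summed to 626 CPM in the 8 cells, 362 in the other 28 cells of A and 656 in B, with a log2 ratio of 0.80 (0.38 to 1.19) between the 8 and the 28. Dnmt1 stood at 148, 52.0 and 168 CPM, and Uhrf1 at 288, 130 and 302. New methylation genes summed to 1112 CPM in the 8 cells and 1062 in the 28 (log2 0.07, -0.22 to 0.34), both above the 695 of B. Dnmt3a was found in 8 of the 8 cells, at 140 CPM against 182 in the 28 and 71.9 in B. The 8 cells were near B in upkeep genes and near the rest of A in the sum of new methylation genes. Upkeep works on newly copied DNA, and these cells were chosen by S phase UMIs. Their upkeep level is therefore not independent of that choice and is given as a description. Dnmt3l, with 1 UMI in the 8 cells and 19 in the 28 (log2 -1.77, -7.70 to 0.33), and Spocd1, with 2 and 17 (log2 -0.88, -4.32 to 0.91), were too sparse to place.

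Genes of the piRNA pathway were similar in both clusters. Of 16 members with at least 20 UMIs 10 were above 0 and 1 was at least 2-fold higher (list of 21, summed log2 0.08, -0.03 to 0.19). The exception was Tdrd5, a Tudor domain protein of germ granules, with 54 UMIs in A and 20 in B (log2 1.31, 0.57 to 2.15). Tdrd1 (0.61), Tdrd7 (0.59) and the acyltransferase gene Gpat2 (0.52) were next, and Rnf17 (-0.45), Tdrd12 (-0.43), Tdrkh (-0.41) and the helicase gene Mov10l1 (-0.27) were lowest.

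Genes of pluripotency and primordial germ cells gave a mixed picture. Of 10 members with at least 20 UMIs 5 were above 0, and the median was -0.02, while the summed level was higher in A (878 against 678 CPM, log2 0.37, 0.18 to 0.57). The sum was carried by Dppa4 and Utf1. Dppa4, a chromatin protein of pluripotent cells, held 110 UMIs in A and 36 in B (log2 1.49, 0.95 to 2.09) and was found in 30 of 36 and 22 of 28 cells. Utf1, which also stands on the list of undifferentiated spermatogonia, held 52 and 13 UMIs (log2 1.86, 1.0 to 2.90) and was found in 25 and 10 cells. Pou5f1, which encodes OCT4, held 63 and 42 (log2 0.48, -0.10 to 1.08), Klf4 had a ratio of 0.46, and Klf2 one of -0.59 (-1.80 to 0.55). The remaining members with the lowest ratios, Tcl1 (-0.37), Alpl (-0.23) and Nr5a2 (-0.10), were close to the background.

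Genes of undifferentiated spermatogonia lay on both sides of 0. Of 26 members with at least 20 UMIs 10 were above 0, 2 at least 2-fold higher and 1 at least 2-fold lower. The median was -0.21 and the summed log2 ratio 0.07 (-0.04 to 0.18), so the 2 differ in sign, and without the 8 cells of high S phase UMIs the summed ratio was -0.07. Glis3, a zinc finger gene, held 53 UMIs in A and 16 in B (log2 1.59, 0.80 to 2.53), and Thy1 (0.85) and Tspan8 (0.82), both surface proteins used to sort stem cells, had ratios above 0 and under 2-fold. Pax7, a marker of rare early spermatogonia, held 9 and 22 (log2 -1.35, -2.70 to -0.22), while Id3 (-0.84, -1.85 to 0.09), Pou3f1 (-0.71) and Etv4 (-0.57) did not reach 2-fold. Ret and Gfra1, the receptor pair for the stem cell factor GDNF, named here after their values were seen, held 145 and 87 UMIs (log2 0.63, 0.24 to 1.03) and 92 and 65 (0.39, -0.08 to 0.88).

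Genes of differentiating spermatogonia were likewise mixed, with 7 of 12 members above it and a summed log2 ratio of 0.07 (-0.06 to 0.19). The homeobox gene Rhox10, known for the step from prospermatogonia to spermatogonia, held 23 UMIs in A and 4 in B (log2 2.28, 0.87 to 4.41). Stra8, the retinoic acid target of differentiation, held 15 and 15 UMIs in 8 of 36 and 5 of 28 cells. The receptor gene Kit held 14 and 25 (log2 -0.92, -2.0 to 0.06), and Sohlh2, a factor of early differentiation, had a ratio of -0.98. Among meiotic genes 10 of 16 were above 0, 1 at least 2-fold (Meioc, 18 and 8 UMIs, 1.02, -0.21 to 2.48). Germ cell RNA-binding proteins had 8 of 17 above 0, with Lin28b (0.74) highest and the translational repressor gene Nanos1 (10 and 20 UMIs, -1.07, -2.36 to 0.06) lowest.

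Targets of p53 and genes of apoptosis were higher in A as a list, with 12 of 16 members above 0, 3 at least 2-fold and a summed log2 ratio of 0.37 (0.23 to 0.52). Per cell the list ran from 6.47 over a median of 13.5 to 50.4 UMIs per 10000 in A. In B it ran from 7.37 over 11.5 to 19.6, so the ranges overlapped widely. Pmaip1, the gene of the death protein NOXA, held 149 UMIs in A and 62 in B (log2 1.15, 0.72 to 1.61). Besides Ccng1, Zmat3, an RNA-binding target of p53, held 16 and 5 (1.48, 0.06 to 3.38), while the death gene Bcl2l11 had a ratio of -0.59 (-1.59 to 0.36). Immediate early and heat shock genes, which dissociation of a tissue can induce, had 12 of 17 members above 0 and 3 at least 2-fold higher in A (Ier3 1.55, Fosb 1.33, Jun 1.05). Their summed level had a log2 ratio of -0.03.

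Chromatin genes were lower in A as a list (summed log2 -0.63, -0.69 to -0.57; 14 of 21 below 0, 4 at least 2-fold). These 4 were the high mobility group genes Hmgn2 (73 and 231 UMIs, -1.76), Hmgb2 (253 and 634, -1.43) and Hmgb1 (-1.09) and the histone variant gene H2afz (454 and 1020, -1.27). Hmgb2 and H2afz were found in every cell of both clusters, so here the level differed and not the share of cells. Ribosome biogenesis had 17 of 21 members below 0 and 0 past 2-fold (summed log2 -0.20, -0.27 to -0.12). Energy genes differed little. Nuclear oxidative phosphorylation genes summed to a log2 ratio of -0.11 and mitochondrially encoded genes to -0.19, and glycolysis genes to 0.05, with Gapdh lower in A (35 and 69 UMIs, -1.07). Gapdh has many near-identical pseudogene copies, so its counts are uncertain.

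**Figure D3:**
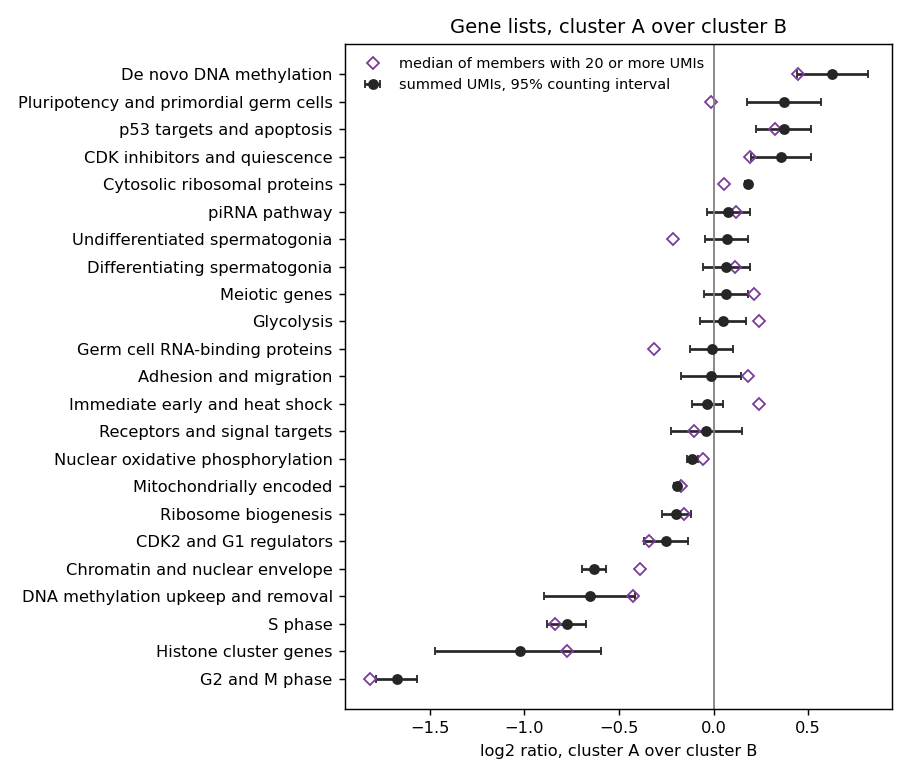
Black points are log2 ratios of summed UMIs, cluster A over cluster B, with 95% counting intervals, and open diamonds are medians over members with at least 20 UMIs. G2 and M phase genes stand lowest at -1.67 and new methylation genes highest at 0.62, with most lists between -0.25 and 0.37.

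Across all genes with at least 50 UMIs, found in at least 0.25 of the cells of the higher cluster, the 15 highest ratios held no gene of new methylation. Dnmt3l and Spocd1, with 22 and 19 UMIs over both clusters, could not enter this ranking whatever their ratios. AA467197 led (45 UMIs in A and 8 in B, log2 2.32), a gene that Sertoli-like cells also held, at 90.5 CPM against 77.2 in A and 14.7 in B. Grb10, an imprinted adaptor gene of insulin signalling, held 51 and 11 UMIs in 29 of 36 and 9 of 28 cells (log2 2.06, 1.15 to 3.20). Cdkn1c, also imprinted, stood among the same 15. The fatty acyl transfer gene Lpcat3 (2.05), the chromatin reader gene Phf21a (2.0) and Ndrg4 (1.98) followed.

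Cln3, a lysosomal membrane protein gene, was the most abundant of the 15, with 95 UMIs in A and 22 in B. Its per-cell level ran from 0 over 126 to 852 CPM in A, where 1 cell held 19 UMIs, and from 0 over 0 to 144 in B (log2 1.98, 1.33 to 2.75). A pair of genes known from the sperm tail, Ropn1l (61 and 14 UMIs, 1.98) and Spa17 (57 and 14, 1.88), were found in 28 and 25 cells of A and in 10 and 12 of B. Ly6h (1.89), Utf1, the clock repressor gene Cry1 (1.81), Plac8 (1.78), Hbs1l (1.71) and Pgm2l1 (1.69) completed the group. Sertoli-like cells held Ropn1l at 3.01 CPM and Spa17 at 7.65, below both clusters.

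Among the 15 lowest ratios 10 belonged to the G2 and M phase list. The lowest of all was Sfrp2, a secreted modulator of Wnt signalling that is no gene of the cell cycle, with 6 UMIs in A and 62 in B (log2 -3.37, -4.97 to -2.27). It was found in 6 of 36 cells of A, never above 1 UMI, and in 19 of 28 cells of B (median 94.7 CPM, highest 467). The cells of the library outside the germ cell table held it at 1.87 CPM. Sez6, a gene known from neurons, held 10 and 44 UMIs (-2.19, -3.40 to -1.23) in 6 and 20 cells, and 1 of 2566 Sertoli-like cells held a UMI of it. The others were the kinesin Kif2c (-2.46), Cdca3 (-2.18) and 2810417H13Rik (-2.25), the gene of a PCNA-bound protein.

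**Figure D4:**
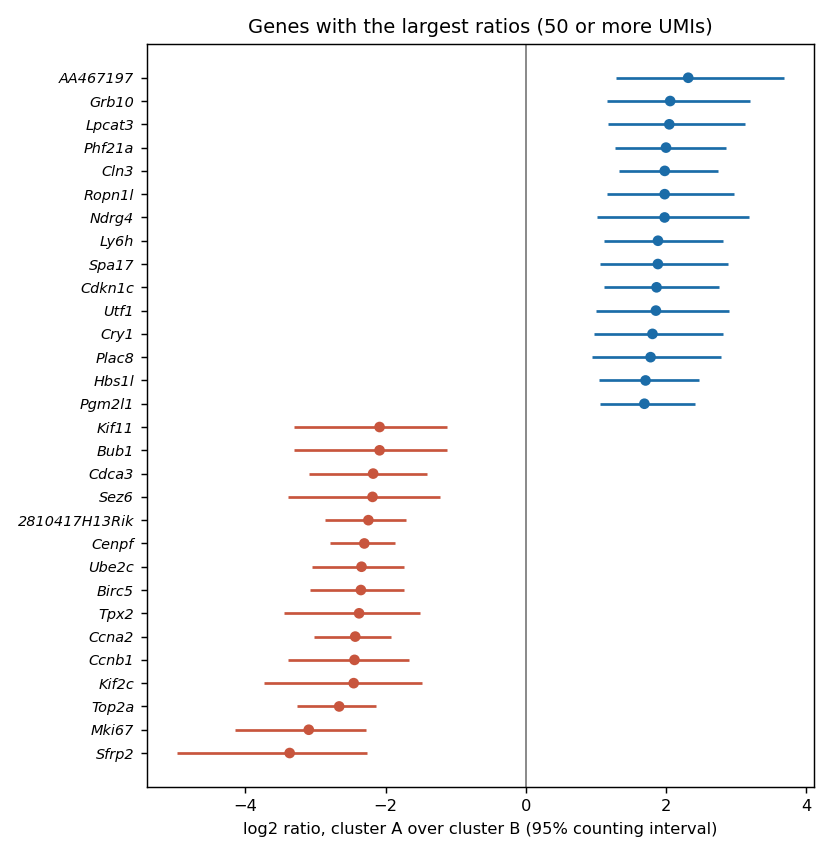
Points are log2 ratios, cluster A over cluster B, with 95% counting intervals, for the 15 highest (blue) and 15 lowest (red) ratios among genes with at least 50 UMIs. Sfrp2 at -3.37 lies below Mki67 and the other mitotic genes. The genes were picked by these ratios.

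One gene with at least 20 UMIs had none in B. Ryr1, a calcium release channel gene, was named after its values were seen. It held 21 UMIs in 15 of 36 cells of A and 0 in B (36.0 CPM against a limit of 5.53), and the exact interval of the log2 ratio began at 2.28.

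Germ cells that the authors' clustering did not use were read for the same lists. A cell was taken where at least 2 of the 3 genes Ddx4, Mael and Dazl had a UMI and at least 500 genes were detected, which gave 69 cells of Cdk2-HET and 57 of Cdk2-WT outside the table. They were parted by their G2 and M phase UMIs, so that list is not read here. A limit of 10 per 10000 left only 8 and 15 cells under it, and 27 of 36 cells of cluster A lay at or above it. A limit of 20, which 7 of 36 cells of A and 28 of 28 cells of B reached, left 26 and 27 cells under it. Both are given, and in the 2 sets 24 and 23 cells lay between 5 and 20, so the classes are ranges and not types. At the limit of 20 the median depth was 10727 UMIs in the low and 14593 in the high cells of Cdk2-HET. In Cdk2-WT outside the table it was 5221 and 5315. All lay below the medians of clusters A and B, so the split rests on fewer UMIs per cell. The part of depth in the ratios below was not tested.

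New methylation genes had ratios above 0 at both limits, with intervals clear of 0 only in Cdk2-HET. In Cdk2-HET the log2 ratio of low over high cells was 0.47 (0.12 to 0.78) at the limit of 10 and 0.43 (0.21 to 0.66) at 20. In Cdk2-WT outside the table it was 0.34 (-0.06 to 0.73) and 0.31 (-0.05 to 0.66), intervals that include no difference. Upkeep and removal genes were lower, at -0.68 and -0.94 in Cdk2-HET and -0.26 (-0.90 to 0.30) and -0.61 (-1.13 to -0.12) in Cdk2-WT. The S phase list was lower in all 4 splits (-0.93 to -1.37). Pluripotency genes stood at 0.13 (-0.22 to 0.45) and 0.17 (-0.23 to 0.55) at the limit of 10 and at 0.32 (0.11 to 0.53) and 0.38 (0.04 to 0.73) at 20. The piRNA list turned its sign between the limits, from -0.33 (-0.57 to -0.10) and -0.29 (-0.56 to -0.04) at 10 to 0.091 and 0.15 at 20. The list of p53 targets, higher in A than in B, had intervals across 0 in these cells, with ratios of -0.11 and 0.20 at the limit of 10 and -0.03 and 0.06 at 20.

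Single genes were sparse in these cells. At the limit of 20, Dnmt3l held 6 UMIs in the low and 5 in the high cells of Cdk2-HET (log2 1.36, -0.60 to 3.43), and 5 and 0 in Cdk2-WT. Spocd1 held 6 and 5 in Cdk2-HET and 3 and 1 in Cdk2-WT. At the limit of 10, Dnmt3l held 0 UMIs in the 8 low cells of Cdk2-HET and 11 in the high cells, so its direction was not settled there. Of the 15 genes highest in A, 13 in Cdk2-HET and 11 in Cdk2-WT had a ratio above 0 at the limit of 10, with medians of 0.26 and 0.62. The 13 in Cdk2-HET include Lpcat3 (70.5 CPM in the low and 75.5 in the high cells) and Ndrg4 (35.2 and 37.1). Their levels were lower in the low cells, and their ratios were above 0 only through the amount added to each sum. At the limit of 20, 14 genes had a ratio above 0 in each set, with medians of 0.84 and 1.17. Among all 3966 genes with at least 50 UMIs outside the G2 and M phase list, 48.0% and 47.6% were above 0 at the limit of 10 and 46.8% and 42.2% at 20. At the limit of 20, Sfrp2 held 0 UMIs in the low and 31 in the high cells of Cdk2-HET and 1 and 10 in Cdk2-WT. Sez6 held 3 and 9 in Cdk2-HET (log2 -0.32, -2.99 to 1.53) and 4 and 7 in Cdk2-WT (-0.58, -2.87 to 1.32). At the limit of 10 its ratio was 0.26 in Cdk2-HET and -0.28 in Cdk2-WT. All its intervals include no difference, so the lower level of Sez6 in A was not seen again there. Cdk2-HET differs from the wild type in genotype and library, and its low and high cells held 684 and 535 CPM of stromal markers and 1042 and 744 CPM of Sertoli markers at the limit of 20. In Cdk2-WT outside the table the Sertoli markers were at 1278 and 1360 CPM, above the 412 of cluster A and the 378 of B. The part of somatic RNA in these ratios was not tested.

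**Figure D5:**
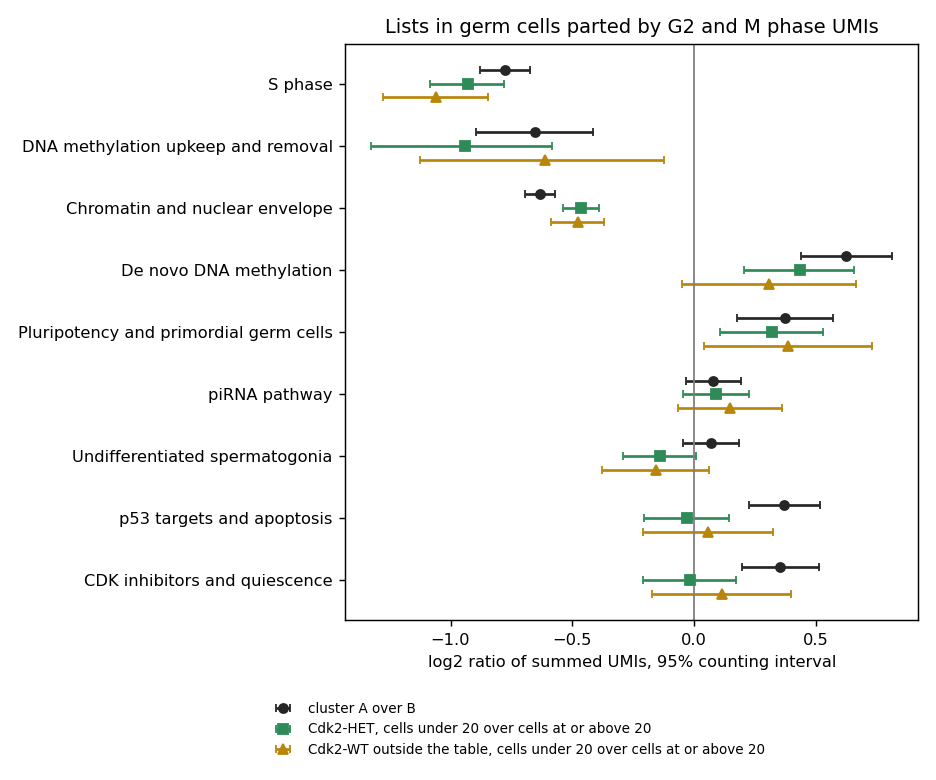
Points are log2 ratios of summed UMIs with 95% counting intervals. Black circles are cluster A over B, and green squares (Cdk2-HET) and yellow triangles (Cdk2-WT outside the table) are germ cells under 20 over those at or above 20 G2 and M phase UMIs per 10000. The points of new methylation genes lie above 0 and those of upkeep and S phase genes below 0 in all 3 sets. For new methylation in Cdk2-WT outside the table the interval includes 0 (-0.05 to 0.66). The p53 targets and CDK inhibitors lie above 0 with their whole interval only for the clusters.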

How the data were processed

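The deposited files hold counts made by the authors: whole UMIs per gene and cell, in a matrix of all 3 libraries (27998 genes) and in a germ cell table (10451 genes) whose values equal the matrix. The submitters' processing notes name mm10 as the build and, as tools, Seurat and Cell Ranger 2.1.0. Neither the gene annotation nor the way germ cells and clusters were chosen is given in the sources used here. The authors' deposited table gives each cell's cluster. No doublet caller was run on the 64 cells.

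UMIs were summed per cluster (582933 in A and 542544 in B) with Python 3.11.15, numpy 2.4.6, scipy 1.17.1 and pandas 2.3.3. CPM have exact Poisson and ratios exact conditional binomial 95% intervals, shares of cells are plain counts, and the limit for 0 UMIs is that of 3 UMIs in the cluster. The scripts were tested on simulated data. Positions come from GENCODE M21 (10440 of 10451 genes). The cells and gene lists were chosen with earlier results of these data known. Named are Mki67, Dnmt3l, Spocd1, Ddx4 and Cdk2, up to 4 highest and 4 lowest members of each list with at least 20 UMIs, and the 15 genes with the highest and the 15 with the lowest ratio at 50 or more UMIs.

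Lists not described above lay close to the background. Receptors and signal targets had 6 of 17 members above 0 (summed log2 -0.04), adhesion and migration 8 of 13 (-0.01), and cytosolic ribosomal proteins 45 of 82 (0.18). Myoid markers summed to 42.9 CPM in A and 27.6 in B, Leydig markers to 6.86 and 1.84, and erythroid markers to 6.86 and 12.9. Alternatives were another amount added to each sum, other UMI limits, thinning, subtraction of ambient UMIs, equal weight per cell, and leaving out mitochondrial genes or cells.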

Additional observations from a re-analysis of the deposited data

How the results depend on the processing

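The numbers of genes at least 2-fold higher and lower in A depend on the UMI limit: 1021 and 442 at 10 UMIs, and 144 and 101 at 50. The G2 and M phase ratio was -1.86 after subtraction of 10% ambient UMIs, and the S phase ratio -0.89 after thinning. Without the 8 cells of A with high S phase UMIs, an alternative chosen after seeing the data, the ratios were -1.93 for G2 and M phase, -1.25 for S phase and -0.067 for undifferentiated spermatogonia. Fewer cells enter this last alternative, and for the others the cause was not tested. Among germ cells outside the authors' table, a limit of 5 per 10000 left 2 cells of Cdk2-HET and 4 of Cdk2-WT under it. There the new methylation ratio was 0.95 in Cdk2-HET and -0.51 in Cdk2-WT, the pluripotency ratio in Cdk2-HET was 1.23, the piRNA ratio in Cdk2-WT was -1.27, and the undifferentiated ratio was -0.17 in Cdk2-HET and -0.58 in Cdk2-WT. At 20 the piRNA ratio was 0.091 in Cdk2-HET and 0.15 in Cdk2-WT and the undifferentiated ratio -0.14 in Cdk2-HET. Of about 250 lists and named genes, 238 moved by less than their counting interval under thinning, 219 of 233 under ambient subtraction and 241 of 251 without the 3 cells of A under 3% mitochondrial UMIs, also chosen after seeing the data. The direction of 21, 0 and 16 of them differed, in that order. Without the 8 cells of high S phase UMIs, 26 of 250 moved by more and the direction of 14 differed. A limit of 20% mitochondrial UMIs removed no cell. No paired analysis was possible because each genotype has 1 library. With 20 UMIs a gene's interval spans several-fold, so smaller differences were not detectable at this depth.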
